A study of Zea mays with 12 samples.

Results

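Among maize loci without an annotated gene name, 89 were low in WT seedlings and higher in every mop1-1 library than in any WT library. They belong to the assembled loci, transcribed regions that the StringTie assembler built from the reads and labelled MSTRG with a number, because no annotated gene name was attached to them. Whether such a locus overlaps an annotated gene could not be checked without positions. The table holds 9774 assembled loci among 38444 features, and 6856 of them were expressed highly enough to be tested. A locus was a member when its mean over the 6 WT libraries was under 0.58 CPM (the count divided by the sum of the library and multiplied by 1000000), when its mean over the 6 mop1-1 libraries was at least 1 CPM and at least 2 times the WT mean, and when its lowest mop1-1 library stood above its highest WT library. The members were thus chosen by their CPM in WT and mop1-1, the genotype contrast itself, and the values in WT and mop1-1 are given as a description, with no test.

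The seedlings were siblings from the self-pollinated ear of a plant heterozygous for mop1-1, a mutation introgressed into the B73 inbred. One genotype was homozygous mutant (mop1-1) and the other homozygous wildtype for Mop1 (WT). At the V3 stage, the roots were placed for 1 h in MS medium, a nutrient solution, that held 50 µM of the hormone abscisic acid (ABA) or none (MS), and the shoots were collected without roots. Each of the 4 groups (WT MS, WT ABA, mop1-1 MS and mop1-1 ABA) had 3 libraries of polyA RNA, described as biological replicates. Whether a library held 1 seedling or several is not given in the sources used here. Around an introgressed mutation, DNA of the donor line stays linked to it, and the assembled loci carry no position here, so an effect of MOP1 loss and a difference in linked DNA cannot be told apart for any single member.

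MOP1 is an RNA-dependent RNA polymerase of RNA-directed DNA methylation (RdDM), the pathway in which small interfering RNAs guide cytosine methylation to matching DNA. It copies transcripts into double-stranded RNA, which is cut into these small RNAs. In maize, the pathway acts largely at transposable elements and other repeats close to genes, and mop1 mutants are known for the loss of most of these small RNAs and for reactivation of silenced transgenes and pigment alleles. None of the members has an annotation that would say what it encodes, so their roles are unknown, and neither sequences nor lengths of these loci were used.

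The libraries held 38295994 to 65574775 counts, so 1 CPM stands for 38.3 to 65.6 counts. The leaf genes rca1 (Zm00001d048593), which encodes Rubisco activase, and psad1 (Zm00001d013039), which encodes a subunit of photosystem I, were at 374 to 784 CPM and 317 to 447 CPM across all libraries. These were 2 of 24 shoot marker names searched, and none of the 11 root marker names searched could be matched to the table. Of 53 names searched for other genes of RdDM, small RNA pathways, DNA methylation and chromatin, 1 was matched. This was rdr6 (Zm00001d040988), an RNA-dependent RNA polymerase other than MOP1, which stood at 23.1 to 33.7 CPM. Its log2 fold change between the genotypes was 0.10 with ABA (adjusted p = 0.633, edgeR QL test) and 0.24 without it (adjusted p = 0.375, edgeR QL test). Mop1 expression itself was not analysed here.

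The members were at 0 or low in WT, with 33 to 45 of the 89 at 0 in each WT library. In 21 of the 89, no count was found in any of the 6 WT libraries, and 68 had a count in at least 1 of them. Of these 68, 28 had counts in all 6 WT libraries. The WT mean had a median of 0.109 CPM over the members and a highest value of 0.561 CPM. In mop1-1 the mean ran from 1.03 to 43.8 CPM with a median of 1.93 CPM, and 47 members were under 2 CPM, 14 at 5 CPM or more and 2 at 20 CPM or more. The RNA is from whole shoots, so transcription in more cells and more RNA per cell cannot be told apart. These CPM are not divided by the length of a locus, so the order of the members is an order of CPM and not of transcript abundance.

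**Figure D1:**
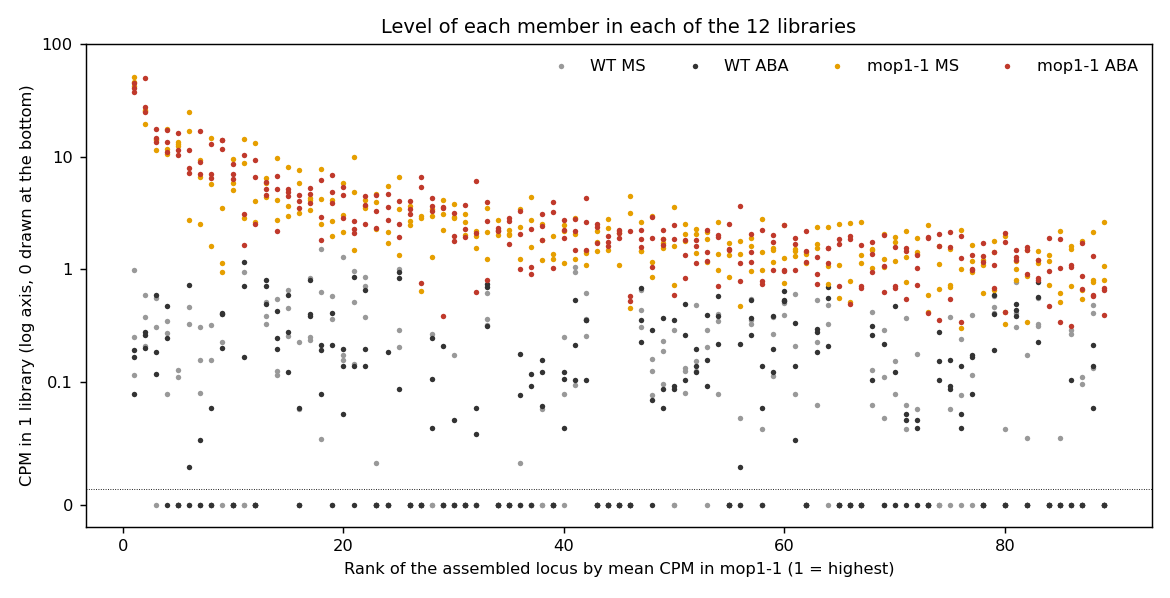
CPM of each of the 89 members (x axis, ranked by mean CPM in mop1-1) in each of the 12 libraries (y axis, log scale, with 0 drawn at the bottom). Grey and black points are WT MS and WT ABA, orange and red points are mop1-1 MS and mop1-1 ABA. For every member the lowest mop1-1 point lies above the highest WT point, which the rule requires, and many WT points lie at 0.

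Added up over the members, the WT libraries held 16.3, 10.5 and 21.5 CPM without ABA and 10.5, 14.2 and 18.4 CPM with ABA. The same sum was 346, 266 and 365 CPM in the mop1-1 MS libraries and 333, 349 and 335 CPM in the mop1-1 ABA libraries. The 3 ABA libraries thus lay within the range of the 3 MS libraries in mop1-1, and mop1-1 MS replicate 2 was the lowest mop1-1 library. The 10 members with the highest mean CPM in mop1-1 made up 47.0% of the mop1-1 sum, and the first 2 of them 21.8%. The residual WT counts were not spread evenly: WT MS replicate 3 was the highest WT library for 20 of the 68 members with a WT count, WT ABA replicate 3 for 17 and WT MS replicate 1 for 15, against 4 to 7 in each of the other WT libraries.

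MSTRG.8393 had the highest counts of all members. It stood at 51.1, 42.0 and 45.7 CPM in mop1-1 MS and at 45.5, 37.7 and 40.6 CPM in mop1-1 ABA, against 0.115, 0.250 and 0.990 CPM in WT MS and 0.191, 0.168 and 0.0786 CPM in WT ABA. Its mop1-1 level varied little, with a coefficient of variation (the SD as a share of the mean) of 10.7% over the 6 mop1-1 libraries. MSTRG.17013 followed at 19.4, 25.9 and 25.2 CPM in mop1-1 MS and 27.8, 49.7 and 24.6 CPM in mop1-1 ABA, with 0.198 to 0.591 CPM in the WT libraries. A single library, mop1-1 ABA replicate 2, lay well above the other 5 for this locus. Both of these loci had counts in all 6 WT libraries, so they were low in WT and not absent.

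MSTRG.4083, MSTRG.3577 and MSTRG.8342 had similar mean levels in mop1-1. Their coefficients of variation over the mop1-1 libraries were 14.4%, 23.0% and 15.5%. In mop1-1 MS and mop1-1 ABA, MSTRG.4083 stood at 13.2 ± 1.61 CPM and 15.2 ± 2.26 CPM (SD, n = 3). MSTRG.3577 stood at 13.2 ± 3.72 CPM and 14.0 ± 3.21 CPM in the same groups (SD, n = 3). MSTRG.8342 stood at 12.9 ± 0.542 CPM and 12.6 ± 3.07 CPM (SD, n = 3). In WT the first and second had 0.288 and 0.231 CPM on average without ABA, while MSTRG.8342 had 15 counts over the WT MS libraries and 0 over the WT ABA libraries.

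**Figure D2:**
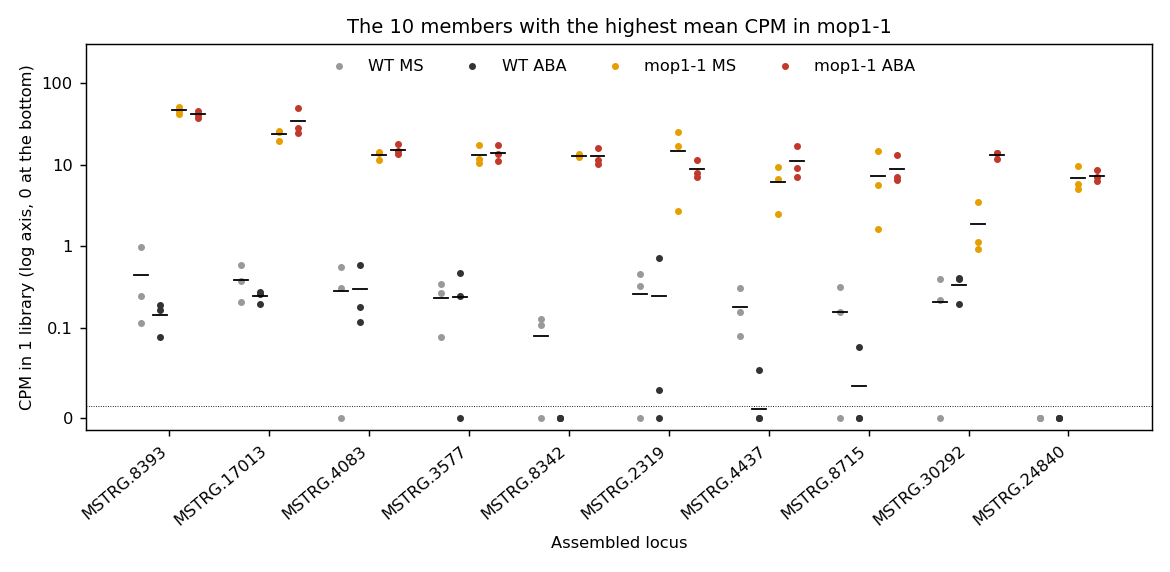
CPM of the 10 members with the highest mean in mop1-1, with 1 point per library (y axis, log scale, 0 at the bottom) and a black bar at the mean of each group of 3. MSTRG.30292 is the locus whose mop1-1 ABA points (11.6 to 13.9 CPM) all lie above its mop1-1 MS points (0.942 to 3.48 CPM), and MSTRG.24840 is at 0 in all 6 WT libraries.

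In the 21 members without a WT count, mop1-1 was 125-fold to 834-fold above a floor of 3 counts over the 6 WT libraries. The median was 231-fold. The counts come from coverage and are not a tally of read pairs, so this floor is not a limit of counting error. A higher floor would give lower folds. The highest fold over the floor was that of MSTRG.24840, which stood at 5.04, 5.84 and 9.55 CPM in mop1-1 MS and 7.06, 6.27 and 8.68 CPM in mop1-1 ABA. MSTRG.1506, 767-fold above the floor, was less even, with 2.64 to 13.1 CPM in mop1-1 MS and 2.53 to 9.36 CPM in mop1-1 ABA. The ranges of its treatments overlapped, with similar lower ends and the highest library in MS.

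MSTRG.8903, 375-fold above the floor, was steadier, at 2.46 to 4.01 CPM over the 6 mop1-1 libraries. MSTRG.25524, 347-fold above the floor, stood at 2.84, 0.635 and 2.96 CPM in mop1-1 MS and 0.757, 6.53 and 5.38 CPM in mop1-1 ABA. In each treatment of MSTRG.25524, 1 library stood far below the other 2. MSTRG.2740, 297-fold above the floor, stood at 1.94 to 3.71 CPM. For the 65 members with more than 3 counts over the WT libraries, the ratio of pooled CPM between the genotypes was 2.41 to 296, with a median of 12.8.

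The members with the highest WT means were MSTRG.17326, MSTRG.9779 and MSTRG.16525. MSTRG.9779 stood at 0.328 to 0.800 CPM in the WT libraries and at 4.39, 5.81 and 6.50 CPM in mop1-1 MS and 5.18, 5.98 and 4.53 CPM in mop1-1 ABA. MSTRG.16525 was at 0.390 to 0.640 CPM in WT, and its mop1-1 libraries ran from 0.754 to 2.49 CPM, so the distance between the genotypes was much smaller. MSTRG.17326 lay just inside the limit on the WT mean at 0.561 CPM, and MSTRG.9603 lay just outside it at 0.583 CPM with a mop1-1 mean of 2.44 CPM. At the limit on the mop1-1 mean, MSTRG.1428 was just inside at 1.03 CPM and MSTRG.2457 just outside at 0.992 CPM. At the requirement that the genotypes do not overlap, the lowest mop1-1 library of MSTRG.22157 was 1.04 times its highest WT library, and that of MSTRG.31324, which is not a member, was 0.968 times. The 2-fold limit left out no locus that met the other requirements.

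The genotype comparisons across all features gave the following counts, which describe the members and support nothing, since the same contrast chose them. Features with at least 0.58 CPM in at least 3 libraries were fitted with the edgeR quasi-likelihood (QL) test, and a feature was called where its adjusted p was 0.05 or less and its log2 fold change was 0.95 or more in size. All 89 members entered the fit among 26401 features. Of them, 53 were called higher in mop1-1 with ABA, where 0.769% of all features were, and 47 were called higher without ABA, where 0.689% were. Both comparisons called 43 members (0.511% of all features) and neither called 32, among them MSTRG.2319 and MSTRG.29520, whose mop1-1 libraries spread widely. Over all tested features, 2.90% had every mop1-1 library above every WT library, and 0.682% had every one below.

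The same rule applied to annotated genes, which are those with a gene identifier of the B73 genome, picked 53, or 0.272% of the 19500 annotated genes tested. The 89 members were 1.30% of the assembled loci tested. With the genotypes exchanged, the rule picked 11 assembled loci and 9 annotated genes, which were low in mop1-1 and expressed in WT. Another 103 assembled loci had a WT mean of 0.58 CPM or more, a mop1-1 mean at least 2 times as high and no overlap between the genotypes. These counts all come from the genotype contrast and were not tested.

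The rule did not compare ABA with MS within mop1-1, so this contrast was tested. It did require every mop1-1 library of both treatments to stand above WT. A locus expressed in mop1-1 under only 1 treatment could therefore not be a member, which limits what the values below can show. Over the 89 members, the ABA effect in mop1-1 had a median log2 fold change of -0.04, with quartiles of -0.36 and 0.19, beside a median of -0.00026 and quartiles of -0.15 and 0.15 over all features tested. The members were divided, with 40 higher and 49 lower in ABA by the fitted value. The edgeR QL test called 0 members and 0% of all features, DESeq2 called 0 members and 0.0492% of all features, and the edgeR exact test called 0 members and 0.00379% of all features. At an unadjusted p under 0.05 by the edgeR QL test, 1 member was higher and 0 were lower, where 1.84% and 1.99% of all features were, or 3.83% together. In 3 members every ABA library was above every MS library of mop1-1 (8.33% of all features), and in 3 every one was below (3.09% of all features). For comparison, the median ABA effect in mop1-1 was -0.18 on the log2 scale over the 53 annotated genes that met the rule and -0.06 over the 103 assembled loci that were also expressed in WT.

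The member at an unadjusted p under 0.05 was MSTRG.30292. In mop1-1 MS it stood at 0.942, 3.48 and 1.14 CPM, and in mop1-1 ABA at 13.9, 13.9 and 11.6 CPM. The lowest ABA library was thus more than 3 times the highest MS library. In WT it was at 0 to 0.401 CPM without ABA and 0.198 to 0.412 CPM with ABA, and the treatments overlapped. The log2 fold change for ABA was 2.74 in mop1-1 (standard error 0.72, unadjusted p = 0.00259, adjusted p = 1, edgeR QL test) and 0.66 in WT (standard error 0.83, adjusted p = 0.913, edgeR QL test). By DESeq2 the mop1-1 effect had an adjusted p of 0.0603, and over all alternatives the adjusted p ran from 0.0603 to 1, so this locus did not pass in any of them. The difference between the ABA effects of the genotypes was 2.08 on the log2 scale (standard error 1.09, adjusted p = 1.00, edgeR QL test). Without mop1-1 MS replicate 2, the highest MS library, the log2 fold change in mop1-1 was 3.61.

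**Figure D3:**
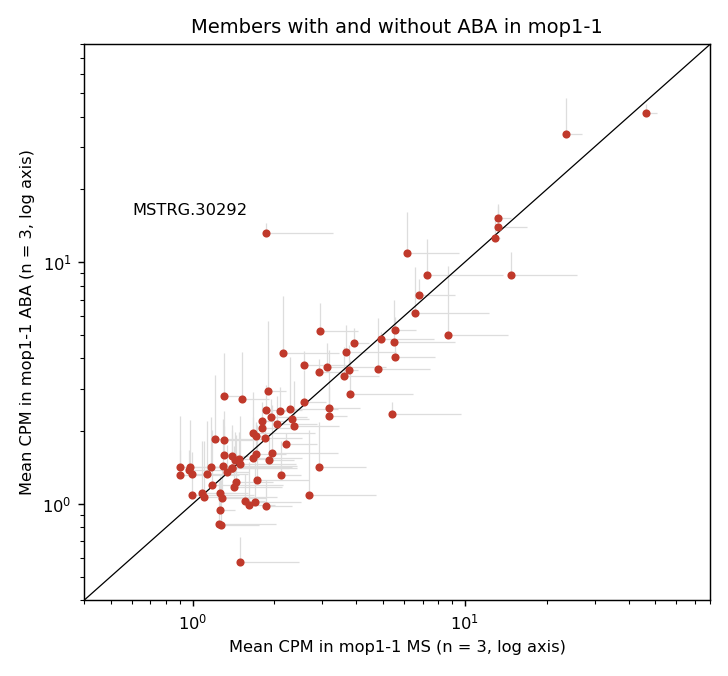
Mean CPM of each of the 89 members in mop1-1 ABA (y axis) against mop1-1 MS (x axis), both on log scales with n = 3 and with grey bars that reach 1 SD above the mean. The black line marks equal levels: 40 members have a fitted ABA effect above 0 and 49 below, and MSTRG.30292 lies farthest above the line, at 1.86 CPM in MS and 13.2 CPM in ABA.

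Other members with small p-values for ABA in mop1-1 showed smaller or less even differences. MSTRG.1428, without a WT count, stood at 1.06, 0.805 and 2.61 CPM in mop1-1 MS and 0.651, 0.392 and 0.677 CPM in mop1-1 ABA, a log2 fold change of -1.42 (standard error 0.66, unadjusted p = 0.0641, edgeR QL test) that was -0.78 without mop1-1 MS replicate 3. MSTRG.24723 stood at 1.09, 1.39 and 1.44 CPM in mop1-1 MS and 1.48, 4.28 and 2.60 CPM in mop1-1 ABA, a log2 fold change of 1.02 (standard error 0.55, unadjusted p = 0.0871, edgeR QL test) that was 0.57 without mop1-1 ABA replicate 2. The groups did not overlap for either locus, and the nearest libraries of the groups lay close together. MSTRG.20105 had a log2 fold change of -0.98 (standard error 0.63) and MSTRG.17013 one of 0.47 (standard error 0.27), or 0.08 without mop1-1 ABA replicate 2, and by the edgeR QL test the adjusted p was 1 for all 4.

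Within WT, the members had few counts on which an ABA effect could rest. The rule had limited their WT values, and the mop1-1 libraries carried them past the filter on low values, so the counts of calls for ABA in WT and for the interaction are given as a description and support nothing about the members. The edgeR QL test called 0 members and 0% of all features, and 6 members were higher and 7 lower at an unadjusted p under 0.05, where 3.23% and 3.92% of all features were, or 7.15% together. DESeq2 called 1 member and 0.258% of all features. That member, MSTRG.12845, had 0 counts over the WT MS libraries and 30 over the WT ABA libraries, where it stood at 0.104, 0.152 and 0.275 CPM, and the edgeR QL test did not call it. In mop1-1 it was at 0.673 to 1.61 CPM without ABA and 0.355 to 2.04 CPM with ABA, so the treatments overlapped there.

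The interaction, which is the ABA effect in mop1-1 minus that in WT and so rests on the same limited WT values, was called in 0 members by the edgeR QL test and by DESeq2, where 0% and 0.102% of all features were called. At an unadjusted p under 0.05 by the edgeR QL test, 5 members were above 0 and 4 below, against 2.27% and 1.97% of all features, or 4.24% together. The 5 members with the smallest p were MSTRG.12845, MSTRG.4437, MSTRG.8342, MSTRG.3578 and MSTRG.9585, and each had 0 to 2 counts over 1 of the WT groups. MSTRG.4437 had 31 counts over the WT MS libraries and 2 over the WT ABA libraries. MSTRG.3578 had 0 counts over WT MS and 12 over WT ABA, and MSTRG.9585 had 11 and 0. The fitted folds of such loci depend on how a count of 0 is handled, so none is given. In mop1-1, MSTRG.4437 stood at 6.59, 2.52 and 9.24 CPM without ABA and 6.99, 9.03 and 16.9 CPM with ABA, and these ranges overlapped.

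Within mop1-1, the members varied from library to library. The highest mop1-1 library of a member was 1.35 to 14.8 times its lowest, with a median of 3.23, and 24 members stayed under 2 times while 21 reached 5 times or more. Such ratios depend on the level, since low counts vary more. Among members of 1 to 2 CPM in mop1-1, the coefficient of variation over the 6 mop1-1 libraries had a median of 42.5% (n = 47), beside 39.4% for the other assembled loci and 38.1% for the annotated genes of that level. Among members of 2 to 5 CPM it was 37.3% (n = 28), beside 27.9% and 27.7%. Among members of 5 to 10 CPM it was 57.8% (n = 8), beside 19.7% and 19.5%, and among the 6 members of at least 10 CPM it was 19.3%, beside 13.5% and 13.8%. The distance from other features was thus smallest at the low end, where most members lie, and it was widest from 5 to 10 CPM. The rule bears on the members' spread, since their lowest mop1-1 library had to stand above their highest WT library. The other features did not have to meet this, and the rule gave 162 loci when the genotypes were allowed to overlap. How much the requirement narrowed the members' spread at each level was not tested. The 6 libraries include both treatments, so a difference between MS and ABA adds to this spread. MSTRG.30292, 1 of the 8 members of 5 to 10 CPM, had 84.1% over the 6 libraries, 76.2% in MS and 10.3% in ABA. These shares were not tested.

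**Figure D4:**
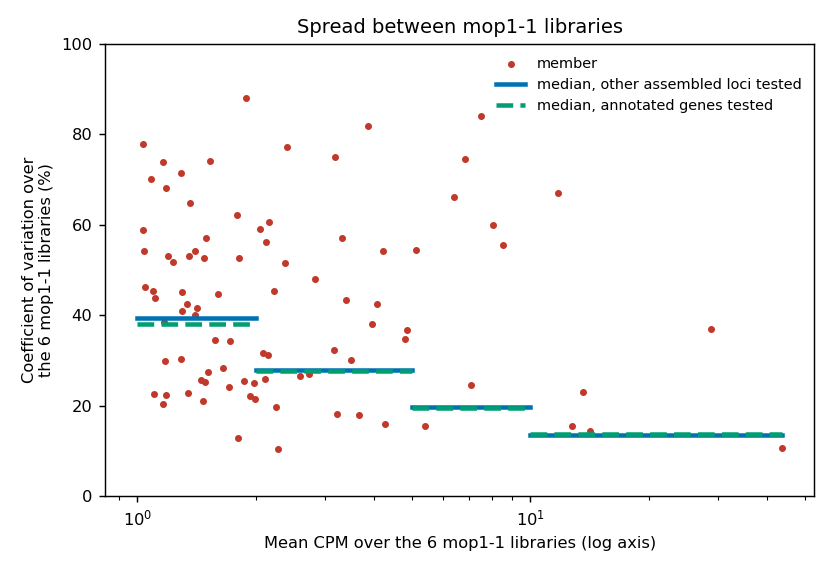
Coefficient of variation over the 6 mop1-1 libraries (y axis, in %) against the mean CPM in mop1-1 (x axis, log scale), with 1 red point per member. Blue and dashed green lines give the medians of the other assembled loci and of the annotated genes tested, in 4 ranges of level, and from 5 to 10 CPM the members' median of 57.8% is above the medians of 19.7% and 19.5%.

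Several of the members with wide spread were not low in counts. MSTRG.2319 stood at 16.7, 2.71 and 24.8 CPM in mop1-1 MS and 7.97, 7.15 and 11.4 CPM in mop1-1 ABA. MSTRG.8715 stood at 14.5, 1.61 and 5.66 CPM in mop1-1 MS and 7.06, 6.48 and 13.0 CPM in mop1-1 ABA. Both were lowest in mop1-1 MS replicate 2. MSTRG.29520 was different, at 8.76, 14.4 and 2.84 CPM in mop1-1 MS and 10.3, 1.65 and 3.06 CPM in mop1-1 ABA, so its highest library was the one in which the others were lowest. MSTRG.19661 was low in a single library, with 4.15, 2.23 and 3.12 CPM in mop1-1 MS and 0.387, 3.60 and 3.52 CPM in mop1-1 ABA.

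At the other end, MSTRG.15928 had no WT count and stood at 2.01 to 2.72 CPM over the 6 mop1-1 libraries, a highest library 1.35 times the lowest. MSTRG.31357 was nearly as even, at 1.55 to 2.22 CPM in mop1-1 and 0.0589 to 0.366 CPM in WT. Low counts therefore did not go with wide spread in every member. Over the members, the highest mop1-1 library was mop1-1 MS replicate 3 for 25 and mop1-1 MS replicate 1 for 23, while mop1-1 MS replicate 2, which had the most counts of the mop1-1 libraries, was the highest for 4 and the lowest for 25. The 3 mop1-1 ABA libraries were the highest for 8 to 16 members each and the lowest for 12 to 16. What sets these libraries apart was not tested.

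The identifier numbers of the members ran from 119 to 31357 in a table whose numbers run from 3 to 32244. StringTie numbers loci in the order in which it works through the genome, so near numbers may mark neighbouring loci, but the files give no positions. In bins of 500 numbers, 22 of 65 bins held no member and the bin from 8500 to 8999 held 10 members, which is 11.2% of the members beside 1.60% of the assembled loci tested. The 4 bins from 8000 to 9999, joined after their counts were seen, held 21 members or 23.6%, beside 6.78% of the assembled loci tested. MSTRG.8393 and MSTRG.8342 are among these 21. The bin from 17000 to 17499 held 6 members, or 6.74% beside 1.52%. Whether any of these loci lies near mop1 was not tested.

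**Figure D5:**
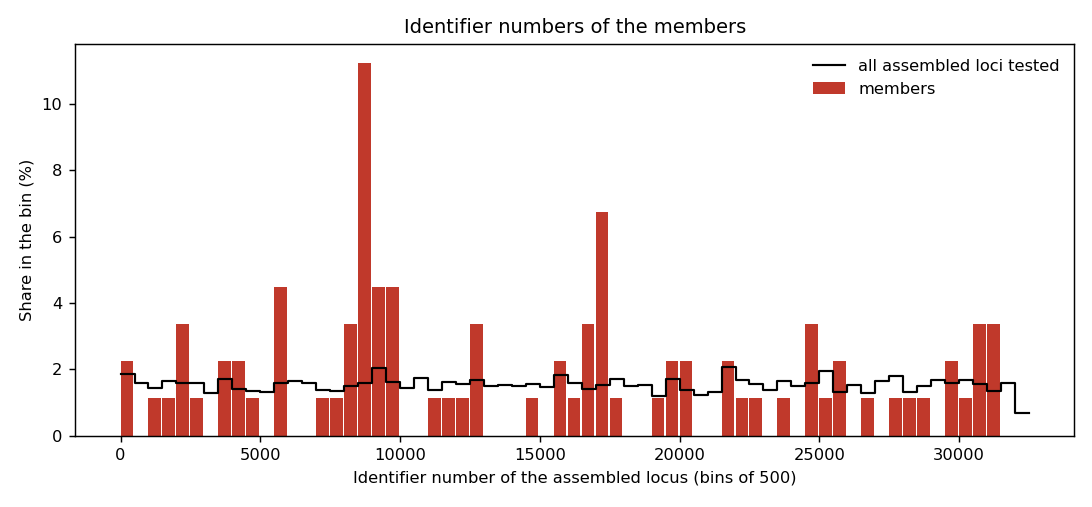
Share of the 89 members (red bars, y axis in %) in bins of 500 identifier numbers (x axis), with the share of all 6856 assembled loci tested as a black line. The line has no bin above 2.09%, and the bar for 8500 to 8999 reaches 11.2%.

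Of the members, 10 had another member within 2 numbers, which made 5 pairs. MSTRG.9082 and MSTRG.9084 varied together: the first stood at 2.49, 0.418 and 0.596 CPM in mop1-1 MS and 0.405, 1.93 and 1.91 CPM in mop1-1 ABA, and the second at 2.59, 0.511 and 0.789 CPM and 0.493, 1.96 and 1.84 CPM. Their ratio stayed between 0.756 and 1.04 over the 6 mop1-1 libraries, although each varied by more than 5 times, and neither had a count in WT. They may be pieces of 1 transcript or loci that share reads, so they may not be separate members, which was not tested. The other pairs were less alike. The ratio of MSTRG.9779 to MSTRG.9780 ran from 2.90 to 5.68, and that of MSTRG.3577 to MSTRG.3578 from 3.80 to 16.6. The ratio of MSTRG.17391 to MSTRG.17392 ran from 0.468 to 1.97 and that of MSTRG.30643 to MSTRG.30645 from 0.416 to 6.88, so near numbers alone did not mean a shared pattern across the libraries.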

How the data were processed

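The authors trimmed the paired-end reads with Cutadapt, checked them with fastp 0.21.0, aligned them with HISAT2 2.2.1 against version 4 of the B73 genome, assembled and quantified transcripts with StringTie 2.1.4 and derived gene counts with the script supplied with it. The deposited values are these counts, whole numbers that are not normalized. They come from coverage and transcript length, so they are not a tally of read pairs.

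CPM were computed from the column sums (Python 3.11.15, pandas 2.3.3). Tests used all 12 libraries, TMM normalization and 4 group means in edgeR 4.0.16 (R 4.3.3), with p-values adjusted by Benjamini and Hochberg over 26401 features. The standard error is the log2 fold change divided by the square root of F. DESeq2 1.42.0, the edgeR exact test, other normalizations and filters, a replicate block and leaving out each library were alternatives. The exact test took its dispersions from the fit to all 12 libraries. Replicates differed, with a chi-square of 30.6 to 186 for each degree of freedom, so none was counted as a copy. This chi-square treats the values as tallies of reads, which they are not, so its size does not measure noise beyond sampling. P-values set a fold change against the variation between these libraries, with dispersions that borrow from all features fitted. The members and lists were chosen with earlier results of these data known. By rule, the text names the 10 members with the highest mean CPM in mop1-1 and 5 with no WT count. It names 5 with the smallest p for ABA in mop1-1 and 5 for the interaction. Named too are the 3 with the widest spread, the 3 with the narrowest and the 3 with the highest WT mean. Loci beside a threshold and members with near numbers complete the rule. Others (MSTRG.29520) were named after their values were seen. Gene names came from RefSeq (Zm-B73-REFERENCE-NAM-5.0), joined through older identifiers.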

Additional observations from a re-analysis of the deposited data

How the results depend on the processing

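With CPM from TMM or RLE library sizes, 88 of the 89 members remained. A mop1-1 mean of at least 2 CPM left 42, and allowing the genotypes to overlap gave 162. The MS libraries alone gave 159 loci, of which 80 were members, and the ABA libraries alone gave 144, of which 79 were. Without 1 library the number was 87 to 101, and at least 85 members were kept each time. Members called for ABA in mop1-1 were 0 under each alternative run, and so were those for the interaction, for which the exact test was not run. For ABA in WT, DESeq2 called 1, while the replicate block and leaving out each library called 0. The other alternatives were not examined for ABA in WT. The median ABA effect in mop1-1 was -0.17 to 0.01 without 1 library. Its sign turned without mop1-1 MS replicate 3. The 5 members with the smallest p for ABA in mop1-1 and the 5 for the interaction kept their sign and did not pass under the alternatives run for them, and other members were not followed singly. Correlations between libraries with the same replicate number were -0.172 to 0.0974, beside -0.182 to 0.216 for different numbers. They gave no sign of pairing, but with 3 libraries in each group they cannot exclude it. With a replicate block in the fit the median was -0.05 and 0 members were called. Depth limits the WT side, where a member at 0 need not be absent. The floor of 3 counts over 6 libraries is a setting and not a limit of counting error.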
